A study of Mus musculus with 27 samples.

Results

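Phase II conjugating enzymes make reactive or fat-soluble compounds easier to export by attaching a polar group to them. The genes described here were the rows of the expression table whose symbol names a glutathione S-transferase (Gsta, Gstk, Gstm, Gsto, Gstp, Gstt, Gstz1 and the microsomal Mgst genes), a UDP-glucuronosyltransferase (Ugt) or a sulfotransferase (Sult). There were 76 such genes among 56691 genes in the table, with 27 Gst, 22 Ugt and 27 Sult symbols. By symbol, 7 were pseudogenes, 1 in the Gst and 6 in the Sult class. Of the 76, 39 had at least 10 counts in at least 3 of 21 organoid libraries and were tested among 15260 genes, and the other 37 were counted as not detected.

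As background, glutathione S-transferases couple glutathione to electrophiles such as the aldehydes released by lipid peroxidation. UDP-glucuronosyltransferases attach glucuronic acid from UDP-glucuronate, and sulfotransferases attach sulfate from the donor PAPS. In the stomach these enzymes act on ingested compounds, steroids, bile acids and phenols, and several Gst and Ugt genes are known targets of the transcription factors NRF2 and AhR.

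RNA was sequenced from mouse stomach (corpus) organoids, 3-dimensional epithelial cultures kept in Matrigel with a proliferating medium, in 7 groups of 3 libraries. Mist1+ and Mist1- organoids with the genotype label WT came from Mist1Cre/ERT2;RFPLSL mice, in which Mist1, a transcription factor gene of gastric secretory and progenitor cells, drives an inducible Cre that switches on a red reporter. Mist1- organoids were taken at passage 5, and Mist1+ organoids (called wild type below) at passages 5, 10 and 15. Mist1+ organoids labelled Gpx4 KO (called knockout below) came from Gpx4F/F;Mist1Cre/ERT2;RFPLSL mice and were taken at the same 3 passages. All organoid groups thus carry the Mist1-driven Cre and the reporter, and no organoid label gives an age. Gpx4 encodes the selenoenzyme that reduces lipid hydroperoxides in membranes. Nothing in the labels tells if a group's 3 libraries came from different cultures or animals, so p-values measure only the spread between these libraries, which may be technical. The 6 libraries from sorted cells in 2 diet groups were not analysed here.

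The level of a gene is its number of counts in each 1000000 after TMM scaling of the library totals (CPM), and levels are compared between genes only as FPKM, which also divides by exonic length. A gene is called where edgeR's quasi-likelihood test gave a Benjamini-Hochberg adjusted p under 0.05 over all 15260 genes. Rose and fell, higher and lower in a count, mean called in that direction. Log2 fold changes carry their standard error (SE). With RNA from whole organoids, fewer cells of a type and less RNA per cell cannot be told apart.

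Library totals were 13805585 to 19608956 counts. Wild-type passage 15 stood apart. The biological coefficient of variation between its libraries was 21.1%, against 1.89% to 3.07% in the other groups, and its replicate 1 was the highest of the 3 for 28 of 39 tested genes, including 23 of 26 Gst genes. Of 5 tested intestinal markers, Cdx2 and Muc2 were higher and Vil1 and Apoa1 lower in it than at passage 5, and the list's median log2 fold change was -0.55. Cdx2 was at a mean of 32.0 CPM there, against at most 1.19 CPM in any other group, while the sum of the list was lowest there (441 to 636 CPM, against 801 to 1418 CPM elsewhere). Gpx4 was at 98.2 to 101 CPM in knockout and 124 to 134 CPM in wild type at passage 5, and at 83.1 to 87.8 against 104 to 196 CPM at passage 15. Its fall was called at those passages and not at passage 10 (log2 fold change -0.30 ± 0.14, adjusted p = 0.0952). The labels do not say which exons the floxed allele removes, so counts over the whole gene check the deletion only in part. The 4 epithelial markers summed to 4197 to 6338 CPM in every library, while squamous, fibroblast, hepatocyte and endothelial marker lists summed to at most 3.90 CPM. Immune markers summed to 2.85 to 18.3 CPM and were lowest in knockout passage 15. Of the chief cell markers Lipf and Pga5 had 0 counts, and the list summed to 10.0 to 38.2 CPM. Pgc, a pepsinogen gene of that list, was at 2.00 CPM in Mist1- and 30.2 CPM in Mist1+ at passage 5, and at 9.31 CPM in knockout at that passage. Bhlha15, the other tested gene of the list, went the opposite way, at 10.4, 5.50 and 10.2 CPM in these groups. Pit cell markers (Gkn1, Gkn2, Tff1, Muc5ac, Psca, Ctse), genes of surface mucous cells, moved strongly between groups. Their sums were 595 to 627 CPM in Mist1-, 4957 to 5102, 6812 to 7063 and 914 to 1541 CPM in wild type at passages 5, 10 and 15, and 1444 to 1469, 2341 to 2539 and 4713 to 4797 CPM in knockout at those passages.

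Some of these genes are hard to tell apart by short reads, which bears on the strongest difference below. The Ugt1 genes sit at 1 locus, whose 4 tested genes lie within GRCm38 chr1:88095062-88220002 (plus strand), and where each gene has its own first exon and all splice to the same later exons. Ugt1a6a and Ugt1a6b, which glucuronidate small planar phenols, had the same coordinates for 4 of 5 coding exons in GENCODE M21. Of the 75-base windows in their transcripts, 51.2% for Ugt1a6a and 74.8% for Ugt1a6b also occurred in another gene's transcript. Their first coding exons (858 bases each) differed at 26 bases, an identity of 97.0%. The 100 coding bases with the most differences (coding positions 261 to 360, counted from the start codon) held 14 of them, and are shown because only reads over such bases can be assigned to 1 of the genes. Capitals mark the bases at which the 2 genes differ, in Ugt1a6a at GRCm38 chr1:88138734-88138833 and in Ugt1a6b at GRCm38 chr1:88107202-88107301, both on the plus strand.
Ugt1a6a: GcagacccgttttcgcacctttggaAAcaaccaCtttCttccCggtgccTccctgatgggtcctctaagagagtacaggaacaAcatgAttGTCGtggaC
Ugt1a6b: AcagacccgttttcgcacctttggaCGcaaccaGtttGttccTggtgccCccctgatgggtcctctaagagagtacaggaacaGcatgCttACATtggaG

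The handling of reads that match several genes is not given in the sources used here. Counts of Ugt1a6a, Ugt1a6b, Ugt1a1 and Ugt1a7c are therefore uncertain over the stretches they share. The same holds for Gsta1, whose coding sequence differed at 2 of 669 bases from its neighbour Gm3776. Of the 880 windows of Gsta1, 84.7% occurred in some other gene's transcript, and 610 windows occurred in Gm3776. By the share of windows found in any other gene, it also holds for Gstp2 (50.1%), Gsta5 (37.3%), Gsta2 (36.6%), Gstp1 (29.2%), Gstm2-ps1 (27.6%) and Gstm3 (21.6%).

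Promoters of 34 of the 39 tested genes were in RefSeq's promoter table (GRCm38.p6), each covering 250 bases before to 50 after a transcription start. Gsta4, Gsta5, Gstm2-ps1, Gstt2 and Ugt1a6b had no entry. The core of the antioxidant response element, the motif bound by NRF2 with a small Maf protein, was searched as TGACNNNGC on both strands. It was found in 4 of 34 tested genes (11.8%), against 14.0% of 27025 genes in the table. Within these short stretches the 34 genes thus did not hold it more often than other genes did. Sequence further away was not searched, so sites there are not covered. The 4 stretches are shown, with the match in capitals and 30 bases on each side, because the calls of the genes that carry them are given together below. They are Gsta3 (chr1:21240434-21240502, plus strand), Gstm5 (chr3:107895782-107895850, plus strand), Gstm7 (chr3:107931705-107931773, minus strand) and Mgst1 (chr6:138140441-138140509, plus strand, matched on the opposite strand).
Gsta3: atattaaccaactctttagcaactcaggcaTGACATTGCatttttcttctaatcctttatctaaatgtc
Gstm5: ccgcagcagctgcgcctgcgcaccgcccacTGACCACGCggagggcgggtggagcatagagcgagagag
Gstm7: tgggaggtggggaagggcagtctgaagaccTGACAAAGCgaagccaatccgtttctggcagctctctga
Mgst1: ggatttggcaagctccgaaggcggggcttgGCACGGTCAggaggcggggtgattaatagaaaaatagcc
The core of the xenobiotic response element of AhR, GCGTG on both strands, was found in 11 of 34 tested genes (32.4%), against 35.2% of genes in the table. The Gstm5 match to TGACNNNGC overlaps a match to this core on the opposite strand. A match is a string of letters, not a measured binding site.

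Nearly the whole Gst class was detected, and most of the Ugt and Sult genes were not. Of the Gst class 26 of 27 genes were tested, and only Gstt4 was not (13 counts over all libraries). Of the Ugt genes 7 of 22 were tested, 4 of the Ugt1 family, Ugt2b34, Ugt2b35 and Ugt8a. Of the Sult genes 6 of 27 were tested, Sult1a1, Sult1b1, Sult1c2, Sult1d1, Sult2b1 and Sult6b1. The 27 include 6 pseudogenes, all with 0 counts. The Sult2a genes, sulfotransferases of bile acids and steroids known from liver, had 0 counts in every library, as did Sult1e1 and the Sult3a genes. In total 24 genes, the Sult pseudogenes included, had 0 counts in all libraries and 13 had a few. Of the tested genes 34 reached 10 counts in all 21 libraries. Just inside the threshold were Ugt1a1 (7 libraries), Sult6b1 (9 libraries) and Ugt1a7c (10 libraries), and just outside it were Ugt2a3 (41 counts in total, none of its libraries at 10) and Ugt2b36 (33 counts). Ugt1a1 passed only through knockout libraries, so some difference in that gene was built into the filter.

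Per exonic length, 2 genes made up most of the enzyme RNA. Over the 21 libraries the mean level was 2775 FPKM for Gsto1, the omega-class enzyme that also reduces dehydroascorbate and methylated arsenic, and 1878 FPKM for Gsta4, the alpha-class enzyme with high activity toward the lipid peroxidation product 4-hydroxynonenal. Gsto1 held 34.2% to 49.1% and Gsta4 26.8% to 36.1% of the summed FPKM of the 76 genes in single libraries. Next came Gsta1 (489 FPKM), Sult1c2 (396 FPKM), Gstp1 (201 FPKM), Gstm1 (188 FPKM) and Gsta3 (120 FPKM). Among glucuronosyltransferases Ugt2b34 led with 70.2 FPKM and Ugt2b35 followed with 6.95 FPKM, and among sulfotransferases Sult1d1 followed Sult1c2 with 10.2 FPKM. The FPKM of Ugt1 genes divides by a length that includes the shared exons, so it may be too low for these genes. The sum over the 76 genes was 5253 to 5305 FPKM in Mist1- and 8437 to 8467 FPKM in wild type at passage 5, and 5364 to 5564 FPKM in all 9 knockout libraries. In wild-type passage 15 it ranged from 5525 to 8196 FPKM and overlapped the knockout libraries.

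**Figure D1:**
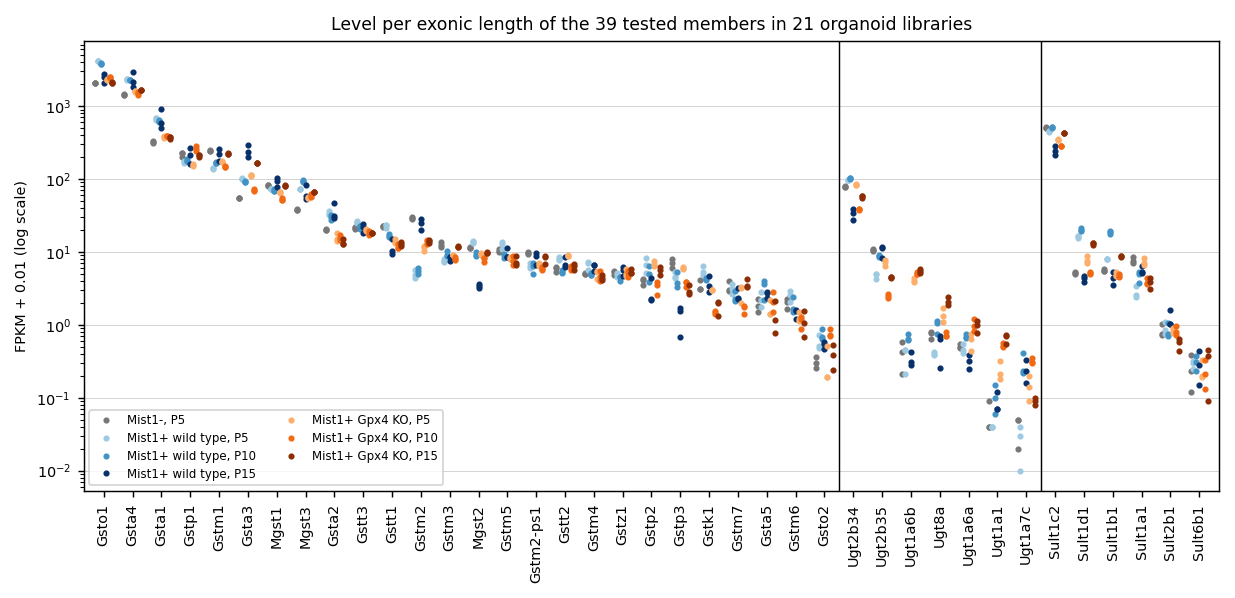
Level per exonic length (FPKM plus 0.01, log axis) of the 39 tested genes, by class and in order of mean level; each point is 1 of 21 libraries, coloured by group. Gsto1 and Gsta4 lead, with means of 2775 and 1878 FPKM, and the Ugt1 genes lie near or below 1 FPKM except Ugt1a6b in knockout libraries.

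Mist1+ organoids held more of many glutathione S-transferases than Mist1- organoids at passage 5. Of 39 tested genes 16 were higher and 8 lower in Mist1+, so 24 (61.5%) were called. Among all 15260 genes 34.7% were called, 18.7% higher and 16.0% lower. The median log2 fold change was 0.30 over the tested genes and 0.00 over all genes. The labels name the cells the organoids were grown from, and Bhlha15, the gene that encodes Mist1, was itself lower in the Mist1+ organoids (5.02 to 6.21 against 8.61 to 12.8 CPM, log2 fold change -0.91 ± 0.14). Within classes, 13 of 26 Gst genes were higher and 5 lower, 1 of 7 Ugt genes was higher and 2 lower, and 2 of 6 Sult genes were higher and 1 lower.

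The largest rise was in Sult1d1, a sulfotransferase of catecholamines and other phenols. It was at 12.8, 12.9 and 12.4 CPM in the 3 Mist1- libraries and at 42.6, 42.4 and 39.6 CPM in the 3 Mist1+ libraries. The groups did not overlap, and the log2 fold change was 1.71 ± 0.08 (adjusted p = 3.31e-13). Gsta1 was at 315, 305 and 299 CPM in Mist1- and 699, 690 and 647 CPM in Mist1+ (log2 fold change 1.15 ± 0.14, adjusted p = 1.01e-06). Summed with its near-copy Gm3776 it was at 365 to 386 against 791 to 846 CPM, a similar ratio for both genes together. Gsto1 was at 4260, 4186 and 4268 CPM in Mist1- and 8686, 8679 and 8761 CPM in Mist1+, a log2 fold change of 1.04 ± 0.08 (adjusted p = 5.47e-10).

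The alpha class rose together in its better expressed members. Gsta4 was at 1785, 1810 and 1856 CPM in Mist1- and 3096, 3053 and 3088 CPM in Mist1+ (log2 fold change 0.76 ± 0.11), and the libraries of the groups lay far apart. Gsta3 rose by 0.93 and Gsta2 by 0.81 on the log2 scale, while Gsta5, the lowest of the class at 1.60 to 3.15 CPM in these libraries, was not called. Outside that class Mgst3, a membrane-bound glutathione transferase and peroxidase, rose by 1.01, Gstp2 by 0.80, Gstk1 by 0.74, Gstt2 by 0.54, Gstm4 by 0.48, Gstt3 by 0.32, Mgst2 by 0.31 and Gsto2 by 0.97. Ugt2b34 was at 333, 341 and 338 CPM in Mist1- and 437, 437 and 431 CPM in Mist1+ (log2 fold change 0.37 ± 0.07), and Sult1b1, a sulfotransferase of thyroid hormones and phenols, rose by 0.57. Sult1c2 lay at 918 to 945 CPM in Mist1- and 850 to 881 CPM in Mist1+ and was not called.

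Several mu class genes went the other way. Gstm2 was at 48.5, 51.2 and 48.0 CPM in Mist1- and 10.0, 8.54 and 7.68 CPM in Mist1+, which put every Mist1+ library far below every Mist1- library (log2 fold change -2.49 ± 0.12, adjusted p = 9.48e-13). Gstm1 and Gstm3 fell with it (-0.75 and -0.69), as did the pseudogene Gstm2-ps1 (-0.50), while Gstm4, which lies next to Gstm1 in the same cluster, rose. Sult1a1, the phenol sulfotransferase, was at 12.9, 10.8 and 11.5 CPM in Mist1- and 4.00, 3.81 and 5.35 CPM in Mist1+ (log2 fold change -1.42 ± 0.16). Ugt2b35 was at 34.9, 35.6 and 36.7 CPM in Mist1- and 17.3, 17.4 and 14.7 CPM in Mist1+ (log2 fold change -1.12 ± 0.10), the reverse of its neighbour Ugt2b34. Ugt8a, which makes galactosylceramide, fell by 0.83 and Gstp3 by 0.51. Pit cell markers summed to 595 to 627 CPM in Mist1- and 4957 to 5102 CPM in Mist1+, with 6 of 6 higher, and their part in these differences was not tested. Leaving out 1 library ended the calls of Gstm2-ps1, Gsto2, Gstp2, Gstp3 and Ugt8a, and the other 19 were called without any single library of the 2 groups.

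**Figure D2:**
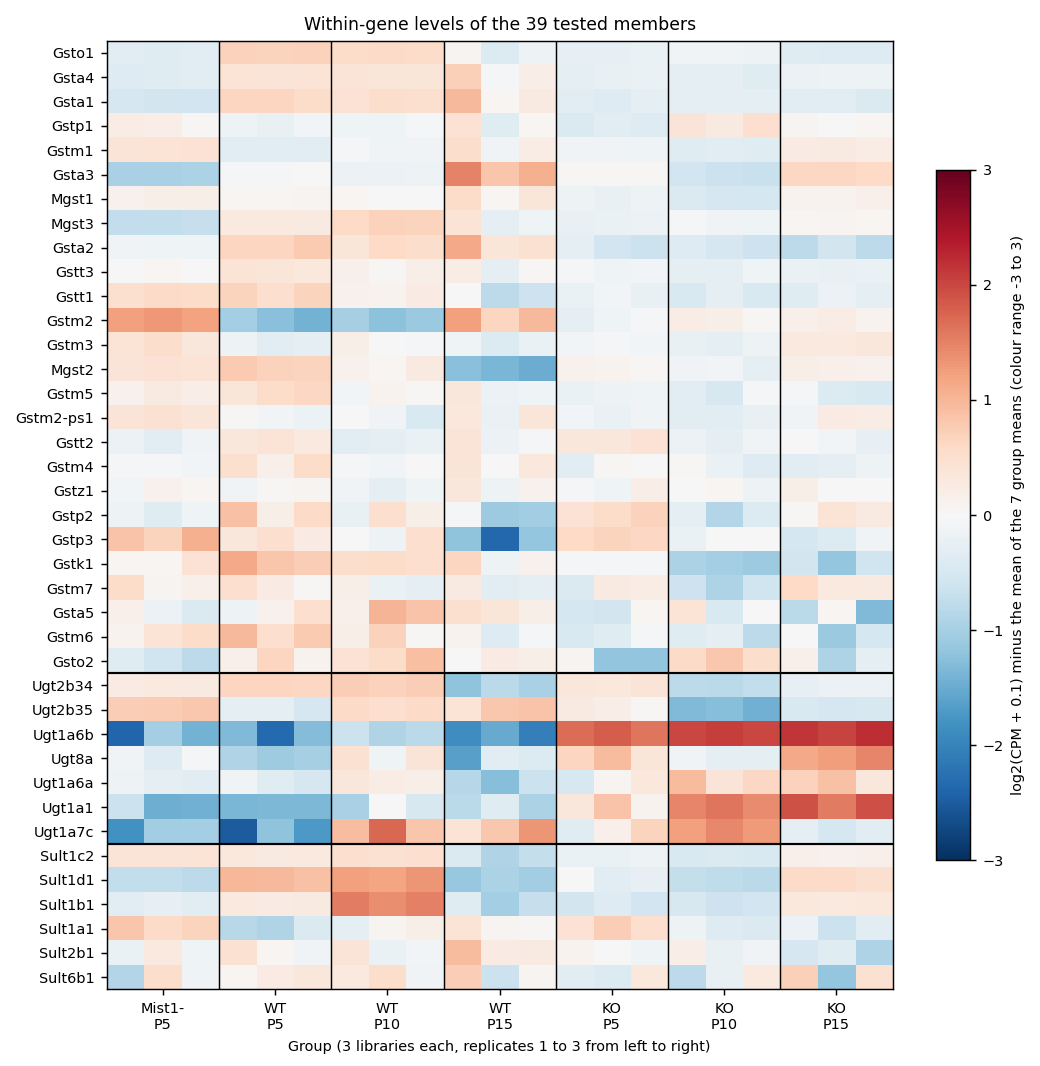
Within-gene level of the 39 tested genes in the 21 libraries, as log2(CPM + 0.1) minus the mean of the 7 group means (colour, from -3 to 3), with 3 libraries per group. Ugt1a6b is high in all 9 knockout libraries, Gstm2 is high in Mist1- and wild-type passage 15, and the 3 wild-type passage 15 columns differ from each other.

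Knockout organoids held less of many glutathione S-transferases than wild type at the same passage, and more of Ugt1a6b. At passage 5, 7 of 39 tested genes were higher and 18 lower (64.1% called), against 29.9% of all genes, 12.9% higher and 16.9% lower. At passage 10, 4 were higher and 21 lower (64.1% called), against 34.1% of all genes, 15.8% higher and 18.3% lower. At passage 15, 12 were higher and 15 lower (69.2% called), against 48.5% of all genes, 23.4% higher and 25.1% lower. With the 6 libraries of passage 15 fitted alone, 19 of 39 tested genes and 2775 of all genes were called, against 7395 of all genes in the main fit. Such fits went the other way at passages 5 and 10, with 28 and 29 tested genes and 7190 and 7691 of all genes called. The median log2 fold change was -0.24, -0.46 and -0.05 over the tested genes at passages 5, 10 and 15, and 0.00, -0.01 and -0.01 over all genes. Wild-type passage 5 libraries also serve in the comparison of Mist1+ with Mist1- organoids, so the values of these comparisons are not independent of each other.

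The 3 passages share no library, so calls can be set side by side. They do share the spread fitted over all 21 libraries. The labels do not tell if the passages of a genotype are 1 culture carried on, so calls at all 3 need not be independent. Lower at all 3 were 7 genes, Gsta1, Gsta2, Gsta4, Gstk1, Gsto1, Gstt3 and Mgst1, and 3.96% of all genes were lower at all 3. The passage 15 calls of Gsta4, Gsto1, Gstt3 and Mgst1 were lost with the libraries of that passage fitted alone. The passage 5 call of Mgst1 was lost without single libraries. Higher at all 3 was Ugt1a6b, and 2.31% of all genes were higher at all 3. Ugt1a1 was also called higher at each passage and is among the counts above, but it entered the tested set only through knockout libraries, so its calls add nothing to the comparison. In 11 genes the direction of the call turned between passages. Another 15 were called in 1 direction at 1 or 2 passages, and Gstm2-ps1, Gstt2, Gstz1 and Sult6b1 were called at none.

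**Figure D3:**
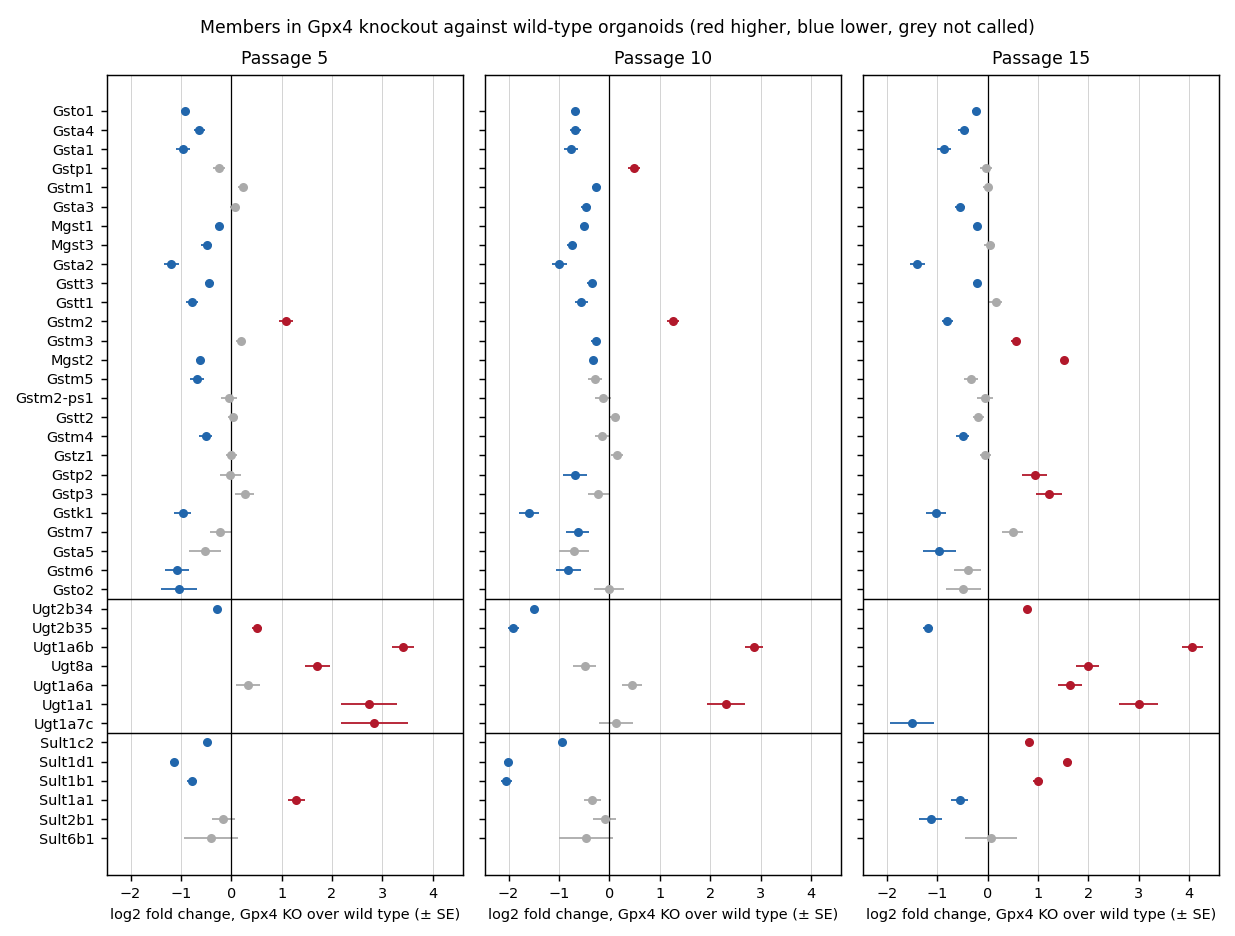
Log2 fold change of each tested gene in Gpx4 knockout over wild type (points, bars ± SE) at passages 5, 10 and 15; red is higher, blue lower and grey not called. Gsto1, Gsta4, Gsta1 and Gsta2 lie left of 0 in all 3 panels and Ugt1a6b right of 0, while Sult1b1, Sult1c2, Sult1d1 and Ugt2b34 change sides at passage 15.

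Ugt1a6b gave the largest rise in each of these comparisons. At passage 5 it was at 1.09, 0.494 and 1.10 CPM in wild type and 9.41, 10.4 and 8.94 CPM in knockout. At passage 10 it was at 1.80, 1.5 and 1.58 against 11.7, 12.4 and 11.8 CPM, and at passage 15 at 0.720, 0.943 and 0.616 against 13.0, 12.1 and 13.7 CPM. Every knockout library thus lay above every wild-type and Mist1- library, with log2 fold changes of 3.41 ± 0.22, 2.87 ± 0.19 and 4.07 ± 0.21 (adjusted p = 9.95e-11, 1.48e-10 and 2.13e-12).

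Ugt1a6a, which differs from it at 14 of the 100 bases printed above, did not follow to that extent. It was at 2.37, 1.98 and 1.78 CPM in wild type and 1.83, 2.73 and 3.20 CPM in knockout at passage 5, where the groups overlapped and the gene was not called (log2 fold change 0.33 ± 0.23). At passage 10 it was at 2.90 to 3.30 against 3.41 to 5.07 CPM and again not called (0.45 ± 0.20). At passage 15 it was at 1.37, 1.00 and 1.60 against 4.25, 4.81 and 3.28 CPM, and was called (1.63 ± 0.23, adjusted p = 8.42e-06). The difference between the 2 genes was not tested, and the handling of reads over their shared exons is not given in the sources used here.

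Ugt1a1, the bilirubin glucuronosyltransferase of the same locus, was near the lower limit of detection. It had 1 count in each wild-type library of passage 5 and 27 counts over the 3 knockout libraries, a ratio of 7.29 (95% counting interval 2.24 to 37.5). At passage 10 it was at 0.120, 0.326 and 0.211 against 1.09, 1.21 and 1.04 CPM, and at passage 15 at 0.144, 0.236 and 0.123 against 1.52, 1.16 and 1.55 CPM. The knockout libraries were the higher ones at each passage, with log2 fold changes of 2.32 ± 0.38 and 3.00 ± 0.39 at passages 10 and 15. These values are a description with no test, because all 7 libraries in which Ugt1a1 reached 10 counts were knockout libraries. Ugt1a7c, a further gene of the locus, rose at passage 5 from 3 counts over 3 libraries to 29, a ratio of 7.83 (95% counting interval 2.43 to 40.2). The groups overlapped at passage 10 (0.959, 1.76 and 0.897 against 1.22, 1.42 and 1.26 CPM, not called), and the gene was lower in knockout at passage 15 (0.648, 0.884 and 1.29 against 0.364, 0.290 and 0.345 CPM, log2 fold change -1.49 ± 0.44). Without replicate 3 of wild-type passage 15 that last call was lost (adjusted p = 0.0510, with 0.00514 to 0.0510 over the alternatives for Ugt1a7c). Counting intervals cover counting error only.

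Gsto1, Gsta4 and Gsta1, the glutathione S-transferases of highest mean FPKM, were called lower in knockout at each passage. Gstp1, Gstm1 and Gsta3, next in level, were not. Gsto1 was at 8686, 8679 and 8761 CPM in wild type and 4601, 4569 and 4684 CPM in knockout at passage 5, and at 7966, 8080 and 7878 against 5073, 4997 and 4889 CPM at passage 10. Neither pair of groups overlapped (log2 fold change -0.92 ± 0.08 and -0.68 ± 0.08, adjusted p = 7.49e-09 and 5.37e-07). At passage 15 it was at 5747, 4104 and 4871 against 4221, 4159 and 4130 CPM, where the groups overlapped and the small fall (-0.23 ± 0.08) was called with the spread of all 21 libraries and not with that of these 6 alone.

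Gsta4 followed the same course. It was at 3096, 3053 and 3088 CPM in wild type and 1923, 1994 and 2026 CPM in knockout at passage 5 (log2 fold change -0.64 ± 0.11), and at 3031, 3008 and 2966 against 1925, 1897 and 1801 CPM at passage 10 (-0.68 ± 0.11). At passage 15, wild type spread over 3800, 2218 and 2654 CPM, and knockout lay just below at 2072, 2084 and 2088 CPM (-0.47 ± 0.11, not called with these 6 libraries alone). Gsta1 was at 647 to 699 against 340 to 362 CPM, 604 to 642 against 362 to 370 CPM and 463 to 876 against 332 to 352 CPM at the 3 passages, with falls of 0.95, 0.76 and 0.86 on the log2 scale. Its sum with Gm3776 was 408 to 434 CPM in knockout against 791 to 846 CPM in wild type at passage 5.

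Gsta2 was lower in knockout by a similar or larger step. It was at 40.4, 39.9 and 44.2 CPM in wild type and 20.9, 17.2 and 16.4 CPM in knockout at passage 5 (log2 fold change -1.19 ± 0.15, adjusted p = 2.30e-06). At passage 15 it was at 56.2, 33.0 and 35.4 against 14.7, 17.6 and 14.8 CPM (-1.39 ± 0.15, adjusted p = 2.02e-07), and its fall at passage 10 was 1.00 on the log2 scale. The groups did not overlap at any passage, although wild-type passage 15 alone spanned 33.0 to 56.2 CPM. Gstk1, the peroxisomal and mitochondrial kappa-class enzyme, fell by 0.97, 1.59 and 1.02, Gstt3 by 0.43, 0.35 and 0.21, and Mgst1, the microsomal enzyme that also reduces lipid hydroperoxides, by 0.24, 0.50 and 0.21. The calls of Mgst1 at passages 5 and 15 and of Gstt3 at passage 15 were lost without single libraries.

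Of the 4 genes with the antioxidant response element core printed above, Mgst1 was lower at all 3 passages and Gstm5 at passage 5 only (-0.68 ± 0.13). Gstm7 was lower only at passage 10 (-0.63 ± 0.23), a call lost without single libraries. Gsta3 was not called at passage 5 (449 to 464 against 475 to 481 CPM) and was lower at passages 10 and 15 (-0.47 and -0.55). At passage 15 Gsta3 reached 1304, 834 and 980 CPM in wild type, its highest level of any group, against 716, 718 and 701 CPM in knockout.

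Gstm2 was higher in knockout at the earlier passages. It was at 10.0, 8.54 and 7.68 CPM in wild type and 17.1, 19.0 and 19.8 CPM in knockout at passage 5, and at 10.3, 8.67 and 9.44 against 24.2, 23.2 and 21.1 CPM at passage 10 (log2 fold change 1.09 ± 0.13 and 1.27 ± 0.13, adjusted p = 1.35e-06 and 8.98e-08). At passage 15 the direction turned, because wild type held 48.2, 32.3 and 40.3 CPM and knockout 23.1, 24.0 and 22.2 CPM (-0.80 ± 0.11). Gstp1, the pi-class enzyme, was higher only at passage 10 (280 to 298 against 370 to 434 CPM, 0.49 ± 0.12). Gstm6, a low gene near 5 CPM, fell by 1.08 at passage 5 (6.04, 4.30 and 5.28 against 2.16, 2.31 and 2.96 CPM, adjusted p = 0.00147) and by 0.81 at passage 10. Further falls at passage 5 were Gsto2 (1.04), Gstt1 (0.78), Mgst2 (0.63), Gstm4 (0.51) and Mgst3 (0.49). At passage 10 they were Mgst3 (0.75), Gstp2 (0.68), Gstt1 (0.56), Mgst2 (0.32), Gstm3 (0.27) and Gstm1 (0.26), and at passage 15 Gsta5 (0.96) and Gstm4 (0.50). At passage 15 Mgst2 (1.53), Gstp3 (1.22), Gstp2 (0.93) and Gstm3 (0.56) were higher in knockout by these log2 fold changes.

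Sult1b1, Sult1c2, Sult1d1 and Ugt2b34 were lower in knockout at passages 5 and 10 and higher at passage 15. Sult1d1 was at 42.6, 42.4 and 39.6 CPM in wild type and 21.4, 17.3 and 17.9 CPM in knockout at passage 5 (log2 fold change -1.14 ± 0.08), and at 50.5, 48.7 and 53.8 against 13.0, 12.6 and 12.2 CPM at passage 10 (-2.02 ± 0.08). At passage 15 it was at 9.72, 11.1 and 10.4 against 32.2, 32.1 and 29.7 CPM (1.59 ± 0.08). No groups overlapped, and both the fall in wild type and the rise in knockout entered the turn. Sult1b1 was at 23.5, 22.9 and 23.2 against 13.0, 14.6 and 12.9 CPM at passage 5 (-0.78 ± 0.10). At passage 10 it was at 55.6, 50.5 and 54.5 against 13.7, 12.4 and 12.8 CPM, the largest fall of that passage (-2.05 ± 0.10, adjusted p = 2.63e-12), and at passage 15 at 14.9, 9.37 and 11.8 against 24.0, 23.6 and 24.0 CPM (1.00 ± 0.11).

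Sult1c2, the most abundant sulfotransferase, was at 881, 850 and 869 against 613, 619 and 638 CPM at passage 5 and at 1002, 964 and 998 against 514, 522 and 516 CPM at passage 10 (-0.48 ± 0.07 and -0.93 ± 0.07). At passage 15 it was at 524, 378 and 430 against 786, 778 and 779 CPM (0.81 ± 0.07), so the knockout libraries were the higher ones without overlap. Ugt2b34 was at 437, 437 and 431 against 354, 350 and 366 CPM, at 465, 448 and 467 against 162, 159 and 167 CPM, and at 122, 159 and 143 against 234, 248 and 247 CPM at the 3 passages (-0.29 ± 0.06, -1.50 ± 0.07 and 0.78 ± 0.07). Pit cell markers had the same order, with 6 of 6 lower in knockout at passages 5 and 10 and 5 of 6 higher at passage 15, and their part in these turns was not tested.

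Ugt2b35 and Sult1a1 turned in the opposite sense. Ugt2b35 was at 17.3, 17.4 and 14.7 CPM in wild type and 25.3, 23.9 and 21.5 CPM in knockout at passage 5 (log2 fold change 0.52 ± 0.10). It was lower in knockout at passage 10 (31.0, 29.5 and 31.1 against 8.28, 8.60 and 7.59 CPM, -1.91 ± 0.11) and at passage 15 (27.7, 36.6 and 37.8 against 15.2, 14.7 and 15.0 CPM, -1.19 ± 0.10). Sult1a1 was higher in knockout at passage 5 (1.29 ± 0.17), not called at passage 10 and lower at passage 15 (-0.56 ± 0.16). Ugt8a was higher at passage 5 (1.71 ± 0.24), not called at passage 10, and higher at passage 15, where it stood at 1.15, 3.00 and 2.84 against 8.43, 9.22 and 10.7 CPM (1.99 ± 0.22). Sult2b1, a cholesterol sulfotransferase, was lower only at passage 15 (-1.13 ± 0.23). Without single libraries, calls were kept for 23 of 25 genes at passage 5, 20 of 25 at passage 10 and 22 of 27 at passage 15. The spread fitted from the 6 libraries of passage 15 alone ended the calls of Gsta3, Gsta4, Gsta5, Gsto1, Gstp2, Gstt3, Mgst1 and Sult1a1 there.

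**Figure D4:**
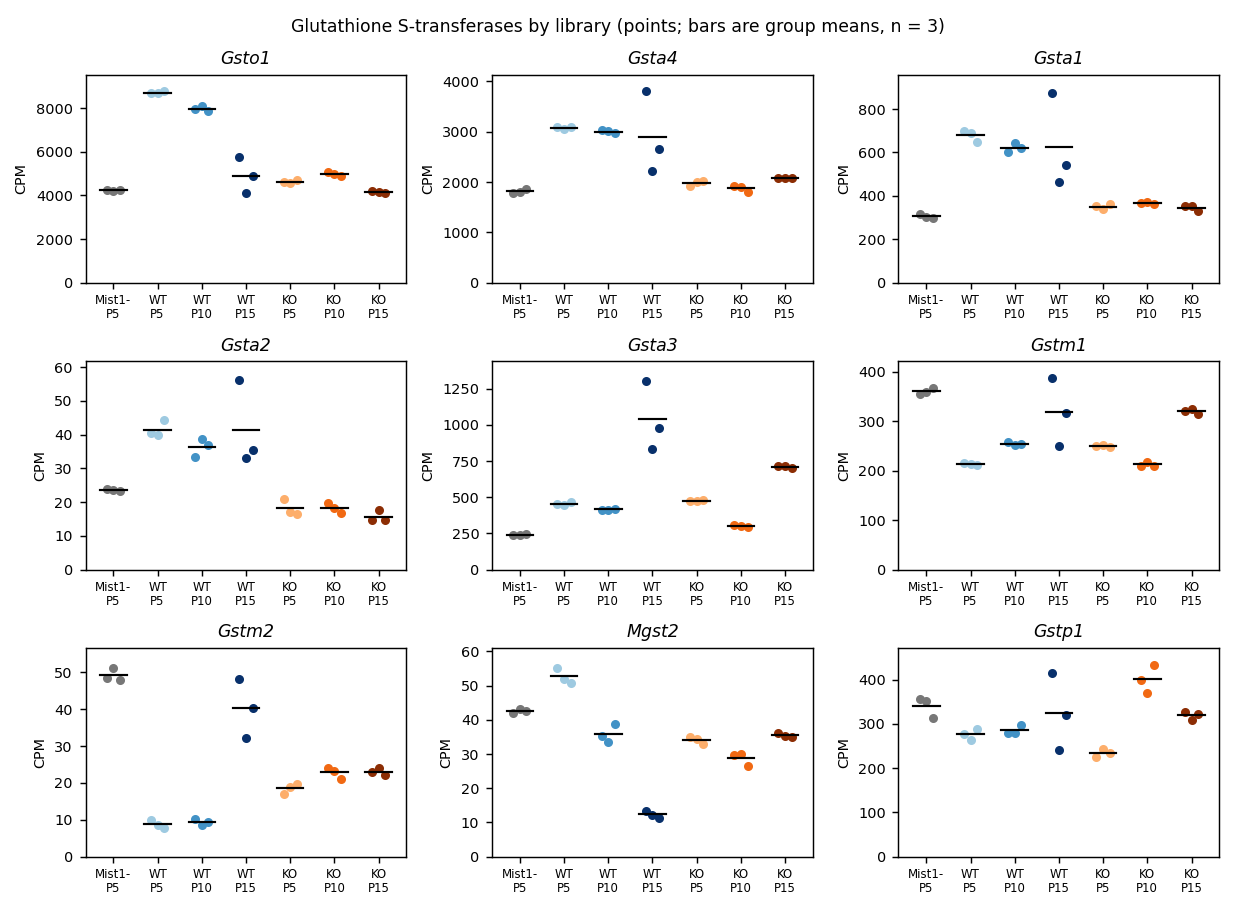
CPM of 9 glutathione S-transferase genes in every library (points) with group means (bars, n = 3), each panel from 0 on its own scale. Gsto1 and Gsta4 are lower in all knockout groups than in wild type at passages 5 and 10, and Gstm2 is lowest in wild type at those passages.

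In wild-type organoids, Sult1b1, Ugt2b35 and Ugt8a rose and Mgst2 fell from passage 5 to passage 10. Of 39 tested genes 7 rose and 4 fell (28.2% called), against 4.84% of all genes, 2.01% higher and 2.83% lower. Ugt2b35 was at 17.3, 17.4 and 14.7 CPM at passage 5, against 31.0, 29.5 and 31.1 CPM at passage 10 (log2 fold change 0.89 ± 0.10), and Sult1b1 at 23.5, 22.9 and 23.2 against 55.6, 50.5 and 54.5 CPM (1.21 ± 0.10, adjusted p = 4.71e-08). Ugt8a was at 1.97, 1.76 and 1.85 against 5.21, 3.46 and 4.96 CPM (1.29 ± 0.25, adjusted p = 0.00280). In these genes every library of passage 10 lay above every library of passage 5.

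Ugt1a7c rose from 3 counts over 3 libraries to 60, a ratio of 17.1 (95% counting interval 5.57 to 85.1), and reached 0.959, 1.76 and 0.897 CPM. Sult1a1, Mgst3 and Sult1d1 rose by 0.73, 0.36 and 0.30 on the log2 scale. Mgst2, a microsomal enzyme that can also make leukotriene C4, was at 55.3, 52.1 and 50.8 CPM at passage 5, against 35.3, 33.5 and 38.8 CPM at passage 10 (-0.55 ± 0.07, adjusted p = 1.53e-05). Gstt2 was at 34.9, 37.0 and 33.8 against 21.8, 22.7 and 24.0 CPM (-0.63 ± 0.11), and Gstm5 at 14.9, 17.1 and 18.0 against 11.0, 12.5 and 11.9 CPM (-0.50 ± 0.13). Gstt1 fell by 0.45. The leading enzymes stayed near their level, with Gsto1 at 7878 to 8080 CPM, Gsta4 at 2966 to 3031 CPM, Ugt2b34 at 448 to 467 CPM and Sult1c2 at 964 to 1002 CPM at passage 10, none of them called.

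This count depended on the spread of wild-type passage 15, which enters the fit but not the comparison. Without that group 24 genes were called, 12 in each direction. With single libraries left out, 6 to 9 of the 39 were called. The number was 7 without replicate 3 of passage 5 and 7 without replicate 1 or 2 of passage 10. It was 6 without replicate 3 of passage 10. The calls of Gstm5, Gstt1, Mgst3, Sult1a1 and Sult1d1 were the ones lost. Pit cell markers summed to 4957 to 5102 CPM at passage 5 and 6812 to 7063 CPM at passage 10, and their part was not tested.

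By passage 15, wild-type organoids had lost much of several enzymes. Of 39 tested genes 7 rose and 16 fell (59.0% called), against 50.9% of all genes, 24.5% higher and 26.4% lower. In this fit the share of called genes was near that of the whole table, and 41.0% of the tested genes fell. That nearness depended on the fit. With the 6 libraries of these groups fitted alone, 16 of 39 tested genes and 3684 of all genes were called, against 7768 of all genes in the main fit. Mgst2 was at 55.3, 52.1 and 50.8 CPM at passage 5, against 13.5, 12.3 and 11.4 CPM at passage 15 (log2 fold change -2.09 ± 0.08, adjusted p = 3.67e-15). Sult1d1 was at 42.6, 42.4 and 39.6 against 9.72, 11.1 and 10.4 CPM (-1.99 ± 0.08), and Ugt2b34 at 437, 437 and 431 against 122, 159 and 143 CPM (-1.62 ± 0.07). The libraries of these genes did not overlap between the passages, even with the spread of passage 15.

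Gstp3 was at 4.34, 4.94 and 4.11 against 1.44, 0.589 and 1.48 CPM (-1.95 ± 0.25). Gsto1 was at 8686, 8679 and 8761 against 5747, 4104 and 4871 CPM (-0.83 ± 0.08), and Sult1c2 at 881, 850 and 869 against 524, 378 and 430 CPM (-0.97 ± 0.07). Further falls on the log2 scale were Gstp2 (1.27), Gstt1 (1.05), Sult1b1 (0.96), Gstm6 (0.89), Gstk1 (0.69), Ugt1a6a (0.63), Gstm5 (0.49), Gstt3 (0.35), Gstt2 (0.27) and Mgst3 (0.26). Gsta4 was at 3096, 3053 and 3088 against 3800, 2218 and 2654 CPM, straddling its earlier level, and was not called.

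Gstm2 was at 10.0, 8.54 and 7.68 CPM at passage 5, against 48.2, 32.3 and 40.3 CPM at passage 15 (2.2 ± 0.13, adjusted p = 9.25e-12), against 48.0 to 51.2 CPM in Mist1- organoids. Gsta3 was at 457, 449 and 464 against 1304, 834 and 980 CPM (1.19 ± 0.10), and Ugt2b35 at 17.3, 17.4 and 14.7 against 27.7, 36.6 and 37.8 CPM (1.05 ± 0.10). Every library of passage 15 was above every library of passage 5 in these genes. Ugt1a7c rose from 3 counts to 45 over 3 libraries, a ratio of 13.9 (95% counting interval 4.45 to 69.7), and Sult1a1, Gstm1 and Mgst1 rose by 0.91, 0.57 and 0.26. Calls were kept without any single library for 20 of 23 genes, and those of Gstt2, Mgst3 and Ugt1a6a were lost. The 6 libraries of these groups fitted alone also ended the calls of Gstk1, Gstm5, Gstt3 and Mgst1. Pit cell markers were lower in 6 of 6 at passage 15, and intestinal markers were higher in 2 and lower in 2 of 5, and the part of neither list in these changes was tested.

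**Figure D5:**
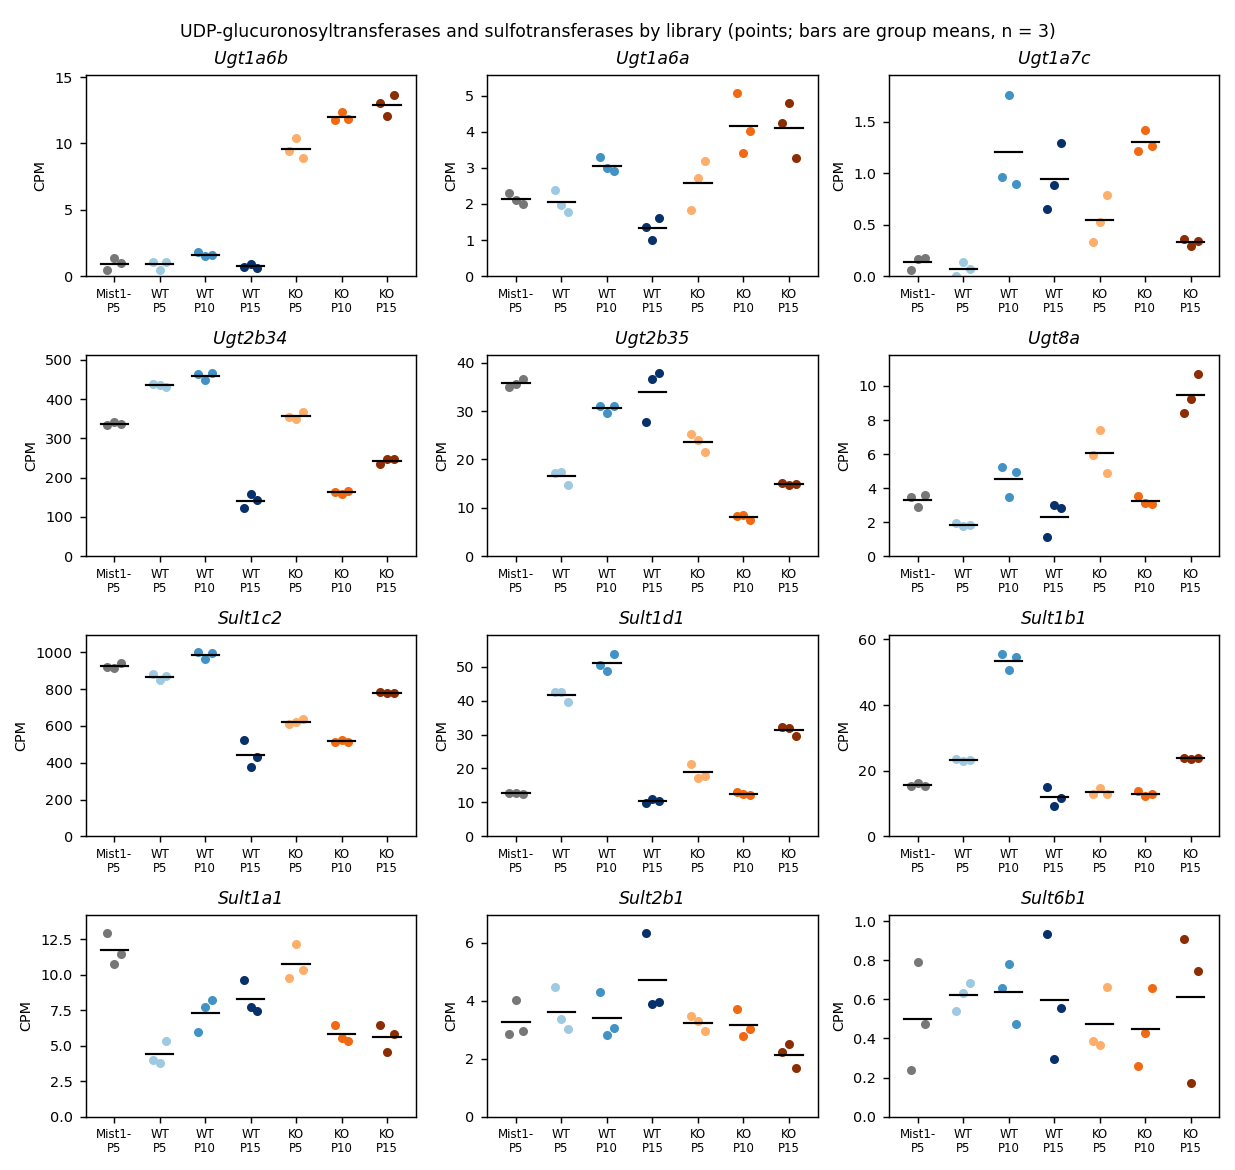
CPM of 6 UDP-glucuronosyltransferase and 6 sulfotransferase genes in every library (points) with group means (bars, n = 3), each panel from 0 on its own scale. Ugt1a6b is at 8.94 CPM or more in every knockout library and at 1.80 CPM or less in every other library, and Sult1d1, Sult1c2 and Ugt2b34 are low in wild-type passage 15.

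In knockout organoids, falls outnumbered rises from passage 5 to passage 10. Of 39 tested genes 5 rose and 14 fell (48.7% called), against 7.49% of all genes, 3.82% higher and 3.67% lower. Ugt2b35 was at 25.3, 23.9 and 21.5 CPM at passage 5, against 8.28, 8.60 and 7.59 CPM at passage 10 (log2 fold change -1.54 ± 0.11, adjusted p = 3.58e-09). Ugt2b34 was at 354, 350 and 366 against 162, 159 and 167 CPM (-1.13 ± 0.07, adjusted p = 3.23e-10), and Gstp2 at 6.97, 7.55 and 8.33 against 4.17, 2.77 and 3.85 CPM (-1.07 ± 0.23). In all 3 genes the passages did not overlap.

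Further falls were Gstk1 (1.01), Ugt8a (0.91), Sult1a1 (0.90), Gstm7 (0.78), Gstp3 (0.70), Gsta3 (0.67), Sult1d1 (0.58), Gstt2 (0.55), Mgst1 (0.33), Sult1c2 (0.27) and Mgst2 (0.25). The rises were in low genes and in Gstp1. Gsto2 was at 1.16, 0.419 and 0.423 against 1.67, 1.99 and 1.59 CPM (1.37 ± 0.34), Ugt1a7c at 0.332, 0.524 and 0.785 against 1.22, 1.42 and 1.26 CPM (1.25 ± 0.38), and Ugt1a1, which the filter kept through these later knockout libraries, at 0.443, 0.681 and 0.362 against 1.09, 1.21 and 1.04 CPM (1.14 ± 0.32). These calls were each lost without single libraries, as was that of Ugt1a6a (0.69 ± 0.20), while that of Gstp1 (226 to 243 against 370 to 434 CPM, 0.77 ± 0.12) was kept. Gsto1 (4889 to 5073 CPM) and Gsta4 (1801 to 1925 CPM) at passage 10 were not called. With single libraries left out 10 to 14 genes were called, with 11 without replicate 2 of passage 5, and 12 without replicate 1 and 10 without replicate 3 of passage 10, and 9 genes were called throughout.

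From passage 5 to passage 15 in knockout, 11 of 39 tested genes rose and 6 fell (43.6% called), against 12.8% of all genes, 5.70% higher and 7.14% lower. Sult1b1 was at 13.0, 14.6 and 12.9 CPM at passage 5, against 24.0, 23.6 and 24.0 CPM at passage 15 (log2 fold change 0.82 ± 0.10, adjusted p = 6.81e-06), and Sult1d1 at 21.4, 17.3 and 17.9 against 32.2, 32.1 and 29.7 CPM (0.73 ± 0.08). Ugt1a1, under the same limit, was at 0.443, 0.681 and 0.362 against 1.52, 1.16 and 1.55 CPM (1.48 ± 0.31). These libraries did not overlap, and pit cell markers rose in 6 of 6 over the same interval, whose part was not tested.

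Ugt1a6a (0.67), Ugt8a (0.63), Gsta3 (0.57), Gstp1 (0.44), Gstm3 (0.39), Gstm1 (0.36), Sult1c2 (0.33) and Mgst1 (0.29) rose by these log2 fold changes. Gstp3 was at 5.20, 5.55 and 5.31 against 2.37, 2.55 and 3.16 CPM (-0.99 ± 0.20), Sult1a1 at 9.74, 12.2 and 10.3 against 6.43, 4.58 and 5.80 CPM (-0.94 ± 0.16), and Gstk1 at 4.32, 4.35 and 4.29 against 2.97, 1.91 and 2.87 CPM (-0.74 ± 0.20). Ugt2b35, Ugt2b34 and Gstt2 fell by 0.66, 0.55 and 0.49. Gsto1 (4130 to 4221 CPM) and Gsta4 (2072 to 2088 CPM) were not called. Ugt1a6b was at 9.41, 10.4 and 8.94 CPM at passage 5, against 13.0, 12.1 and 13.7 CPM at passage 15, without overlap and just short of the threshold (0.43 ± 0.14, adjusted p = 0.0517). Calls were kept without any single library for 12 of 17 genes, and lost for Gstk1, Gstp1, Mgst1, Ugt1a6a and Ugt8a.

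The change with passage differed between knockout and wild type for part of these genes, as tested by the interaction of genotype with passage. For passage 10 against 5, the knockout change exceeded the wild-type change in 1 of 39 tested genes and was below it in 11 (30.8% called), against 5.88% of all genes, 3.11% and 2.77% in these directions. For passage 15 against 5 the numbers were 12 and 6 (46.2% called), against 38.0% of all genes, 19.5% and 18.4%. At passage 10 the differences of at least 1 on the log2 scale were in Ugt2b35 (-2.43 ± 0.15), Ugt8a (-2.20 ± 0.34), Sult1a1 (-1.63 ± 0.23), Sult1b1 (-1.27 ± 0.15), Ugt2b34 (-1.21 ± 0.09) and Ugt1a7c, the last a low gene whose call was lost without single libraries. Each of the first 5 rose or was not called in wild type and fell or was not called in knockout.

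At passage 15 such differences were positive in Sult1d1 (2.72 ± 0.11), Mgst2 (2.15 ± 0.10), Sult1b1 (1.78 ± 0.15), Ugt1a6a (1.30 ± 0.33), Sult1c2 (1.29 ± 0.11) and Ugt2b34 (1.07 ± 0.09), and negative in Gstm2 (-1.89 ± 0.17), Sult1a1 (-1.85 ± 0.23), Ugt2b35 (-1.71 ± 0.14) and Ugt1a7c. Mgst2 shows how wild type alone can set such a value, since it fell from 50.8 to 55.3 CPM to 11.4 to 13.5 CPM there and was at 32.8 to 35.1 and 35.1 to 36.2 CPM in knockout at the same passages. For Gsto1, Gsta4, Gsta1 and Gsta2 the passage 10 interaction was not called, with differences of 0.24 ± 0.11, -0.04 ± 0.16, 0.19 ± 0.19 and 0.19 ± 0.21, and a p that misses the threshold does not show that the changes were alike. Both interactions use the passage 5 libraries, so their values are not independent of each other.

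Genes that supply the conjugating enzymes were followed in lists, whose counts stand beside 29.9%, 34.1% and 48.5% of all genes called in knockout against wild type at passages 5, 10 and 15. The list counts and these shares use the fit of all 21 libraries, on which the shares depend as given above. For Mist1+ against Mist1- the share of all genes called was 34.7%, with 18.7% higher and 16.0% lower. The 3 tested genes of UDP-glucuronate supply are Ugdh, which oxidizes UDP-glucose to UDP-glucuronate, Ugp2, which makes UDP-glucose, and the transporter gene Slc35d1. Of these, 2 were higher in Mist1+ than in Mist1-, 3 of 3 were lower in knockout at passages 5 and 10, and 1 was lower at passage 15, with median log2 fold changes of -0.63, -0.55 and 0.03. Ugdh was at a mean of 1362 CPM in wild type and 716 CPM in knockout at passage 5 (log2 fold change -0.93 ± 0.04). Of 6 tested genes for PAPS supply and sulfate uptake, 4 were higher and 1 lower in Mist1+, and 4 were lower and none higher in knockout at passages 5 and 10. Papss2, a PAPS synthase, was at 141 CPM in wild type and 73.5 CPM in knockout at passage 5 (-0.94 ± 0.07), and the sulfate transporter gene Slc26a2 at 1716 and 835 CPM (-1.04 ± 0.14). At passage 15 Papss2 was higher in knockout (0.67 ± 0.07), and no other gene of that list was called, so 1 of 6 was called there. The list's medians at the 3 passages were -0.22, -0.32 and 0.05.

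Of 9 glutathione supply genes, 4 were lower and none higher in knockout at passage 5, 4 were lower and 1 higher at passage 10, and 6 were lower and 1 higher at passage 15. Gclc, the catalytic subunit of glutamate-cysteine ligase, was at 773 CPM in wild type and 496 CPM in knockout at passage 5 (-0.64 ± 0.08), and its partner Gclm at 189 and 130 CPM (-0.54 ± 0.05). Of 8 further NRF2 target genes, 8, 6 and 5 were lower in knockout at passages 5, 10 and 15, with only Me1 higher, at passage 15, and 5 were higher in Mist1+ than in Mist1- with none lower. Nfe2l2, which encodes NRF2, was at 773 against 541 CPM at passage 5 (-0.51 ± 0.04), 663 against 543 CPM at passage 10 (-0.29 ± 0.04) and 720 against 445 CPM at passage 15 (-0.69 ± 0.04). Of 4 AhR target genes, 2 were lower and none higher in knockout at passage 5, 2 were called in each direction at passage 10, and 2 were higher and none lower at passage 15 (medians -0.31, 0.68 and 0.38). At passage 10 knockout held Cyp1b1 at 8.41 CPM and Cyp1a1 at 1.55 CPM, against 2.2 and 0.0200 CPM in wild type. Aldh3a1 (515 against 795 CPM) and Tiparp (22.5 against 33.1 CPM) were the genes lower in knockout there. Cyp1a1 was at 0 CPM in the groups of the other passages, so it entered the tested set only through knockout passage 10. Its call therefore adds nothing to the comparison, although it is part of the count and median given for that passage.

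Of 8 conjugate export genes, 3 were higher and 3 lower in knockout at passage 5, 2 and 3 at passage 10, and 1 and 3 at passage 15. Abcc3, an exporter of glucuronides, was at 690 against 517 CPM at passage 5 (-0.42 ± 0.05). Of 7 tested genes of deconjugation and mercapturate processing, 2 were higher and 2 lower at passage 5, 4 and 1 at passage 10, and 1 and 4 at passage 15. Of 19 regulator genes, none was higher and 5 were lower at passage 5, 1 was higher and 9 were lower at passage 10, and 6 were higher and 4 lower at passage 15. Several lists were mixed in Mist1+ against Mist1-. There 3 glutathione supply genes were higher and 2 lower, and 1 AhR target gene was higher and 2 lower. For conjugate export the numbers were 1 and 3, for deconjugation and mercapturate processing 2 and 3, and for regulators 4 and 5.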

How the data were processed

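The deposited table holds raw counts per gene and, beside them, FPKM computed by the authors. Recomputing FPKM from the deposited counts and gene lengths gave the same values within 0.005. Per the submitters' processing notes, the tools were cutadapt 1.9.1, HISAT2 2.2.1 and HTSeq 0.6.1 with GRCm38.p5. Strand and multi-mapping settings are not given in the sources used here. The coordinates in the table matched GENCODE M21 (GRCm38) at start and end for only 1472 of 52073 shared gene IDs, although 50346 had the same chromosome and span, so printed coordinates come from GENCODE M21 or RefSeq and not from the table.

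Counts were fitted with edgeR 4.0.16 (R 4.3.3): TMM scaling, 7 group means over all 21 libraries and robust quasi-likelihood F-tests, with Benjamini-Hochberg adjustment over 15260 genes that had at least 10 counts in at least 3 libraries. SEs were derived from F as |log2 fold change| over its square root. The script was tested on simulated data. DESeq2 1.42.0, limma 3.58.1 on log2(FPKM + 1) and log2(FPKM + 0.1), other filters, scaling and sets of libraries, and leaving out each library were alternatives. Ratios with 1 to 3 counts in a group carry 95% counting intervals.

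Library totals were 13805585 to 19608956 counts. Same-numbered libraries did not deviate together (correlations from -0.032 to 0.028), so numbers were not used as pairs. Named with values in every library were the 2 genes of highest mean FPKM in each class and, per comparison, up to 3 called genes with the largest rise and 3 with the largest fall whose groups did not overlap. The gene set, lists and rules were chosen with earlier results of these data known. The 6 sorted-cell samples were not analysed here. A list of other conjugating enzymes is not reported here.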

Additional observations from a re-analysis of the deposited data

Results flagged for a closer look

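The change with passage differed between knockout and wild-type organoids, by edgeR's interaction test, in the following genes with a difference of at least 1 on the log2 scale (knockout change minus wild-type change). From passage 5 to passage 10 the difference was -2.72 in Ugt1a7c, -2.43 in Ugt2b35, -2.20 in Ugt8a, -1.63 in Sult1a1, -1.27 in Sult1b1 and -1.21 in Ugt2b34. From passage 5 to passage 15 it was -4.34 in Ugt1a7c, -1.89 in Gstm2, -1.85 in Sult1a1 and -1.71 in Ugt2b35. Over the same interval it was 1.07 in Ugt2b34, 1.29 in Sult1c2, 1.30 in Ugt1a6a, 1.78 in Sult1b1, 2.15 in Mgst2 and 2.72 in Sult1d1. The Ugt1a7c values rest on 3 counts over the 3 wild-type libraries of passage 5, so their size depends on the prior count of the fit.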

How the results depend on the processing

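The numbers of called genes were within 1.5 times of those reported under RLE scaling, both other filters, DESeq2 and both limma fits. Requiring also a 2-fold change left 7 genes for Mist1+ against Mist1-, 10, 9 and 13 for knockout against wild type at passages 5, 10 and 15, and 3 and 10 for wild type at passages 10 and 15 against 5. It left 7 and 1 for knockout at passages 10 and 15 against 5, and 6 and 10 for the interactions at passages 10 and 15. These are fewer by construction. Wild type at passage 10 against 5 gave 24 genes without wild-type passage 15 and 25 with only the groups compared, and 6 to 9 with 1 library left out. Knockout at passage 10 against 5 gave 10 to 14 with 1 library left out. Gsta4 in wild type at passage 15 against 5, not called at -0.09 on the log2 scale, ranged from -0.33 without replicate 1 of passage 15 to 0.0701 without replicate 2. Of the alternatives for named genes, 663 of those leaving out a library kept direction and call, and 37 lost the call.

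With the replicate number as a block, 25 genes were called for Mist1+ against Mist1-, 25, 25 and 28 for knockout against wild type at passages 5, 10 and 15, 11 and 22 for wild type and 18 and 17 for knockout at passages 10 and 15 against 5, and 11 and 18 for the interactions. The libraries share only a number. Genes near 10 counts, such as Ugt1a1, Ugt1a7c, Gsto2 and Sult6b1, are limited by depth.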
